A study of Mus musculus with 62 samples.

Results

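Whole hearts were profiled by RNA sequencing 6 weeks after mice received cachectic melanoma cells (CAC, 5 hearts) or a mock injection (Con, 5 hearts). These 10 libraries were taken by their labels, with no measured value used, out of 62 in a series that also holds non-cachectic melanoma cells (NCAC) and weeks 2, 4 and 8. All animals were females, and the design text puts their age at injection at 2 months. The design text names the hosts as NCI Ath/nude mice, an athymic stock that lacks mature T cells, whereas the sample labels name the strain as C57BL6/J. Neither source names a different host for any group. The labels call the libraries of a group biological replicates and each title carries its own heart number. They name neither the melanoma lines nor any tumour or body weight.

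Cachexia is a wasting of muscle and fat tissue seen with some tumours, and the heart can lose mass with it. In many models, circulating cytokines of the IL-6 family act through the shared receptor gp130, the JAK kinases and the transcription factor STAT3, which switches on Socs3 as a brake and secreted acute-phase proteins as effectors. Adult heart muscle draws most of its energy from fatty acids burned in mitochondria, and its contraction rests on sarcomere proteins, on calcium stored in the sarcoplasmic reticulum, and on ion channels that set each heartbeat. The comparison asks what a heart transcribes differently once the tumour-bearing host is at this stage.

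The deposited values are TPM, a share of each library, and were rescaled here by median-of-ratios factors, so that a typical gene has the same level in all hearts. Levels below are rescaled TPM, given as mean ± SD over 5 hearts or heart by heart in the order of replicates 1 to 5. A gene is said to rise, fall or be called when its limma p-value adjusted over all tested genes was below 0.05. Fold changes are differences of log2(rescaled TPM + 1), CAC minus Con, a scale that understates the change of low genes. The read depth recovered from the values was about 44070000 to 48390000 reads over the 10 libraries. Mitochondrially encoded RNA took 49.3 to 53.2% of TPM in CAC hearts and 57.5 to 60.9% in Con hearts, and the scaling factors, 1.04 to 1.16 for CAC and 0.896 to 0.972 for Con, did not overlap either. Without rescaling, the median gene was therefore 0.209 higher on the log2 scale in CAC, and small falls below can turn into no change or a rise on that scale. Where the split of a list changes markedly on that scale, its counts with TPM as deposited stand in brackets. A gene was tested when at least 5 of the 10 hearts reached 1 rescaled TPM, so a gene can pass through the group in which it is high alone.

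The heart label matched the levels of cardiomyocyte genes, such as Myh6 at 6526 ± 1162 in CAC and 6409.6 ± 216 in Con (SD, n = 5 each). The atrial genes Myl7, Sln and Bmp10 and the skeletal muscle genes Myh1 and Myh4 were all below 1 in every one of the 10 hearts. Other members of these classes were expressed. Of 13 listed atrial and conduction genes 9 passed the filter for testing, and of 19 listed skeletal muscle genes 6 did. The protocols name whole hearts, and how much atrial tissue the samples held was not tested. T-cell receptor complex genes were close to 0: Cd3e reached 0.656 in CAC and 0.133 in Con at most, and Cd8a 0.0596 in CAC and 0.0527 in Con. The MHC class II gene listed as H2-Ea-ps stood at 8.14 to 23.7 in CAC hearts and 6.53 to 12.9 in 4 Con hearts, with 0.390 in Con replicate 4, so that heart stands apart from the others in this gene. Whether all hosts were of the same strain was not tested. Bulk RNA cannot tell fewer cells of a type from less RNA per cell, which holds for every marker gene below.

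Of 11757 genes tested, 4435 (37.7%) were called, with 2268 above Con (19.3%) and 2167 below it (18.4%) in CAC hearts. The values of all 5 CAC hearts lay beyond those of all 5 Con hearts for 3106 genes (26.4%). Rises were larger than falls. A log2 difference of at least 1, a doubling, was reached by 260 genes that rose and 100 that fell, a 4-fold difference by 48 and 4, and an 8-fold difference by 17 and 0. With TPM as deposited the split was 6170 higher and 672 lower, and 2267 of the 2268 rises but 669 of the 2167 falls were called there too. The first principal component held 63.3% of the variance and placed all 5 CAC hearts on one side (scores 15.1 to 30.9) and all 5 Con hearts on the other (−24.1 to −19.3).

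**Figure D1:**
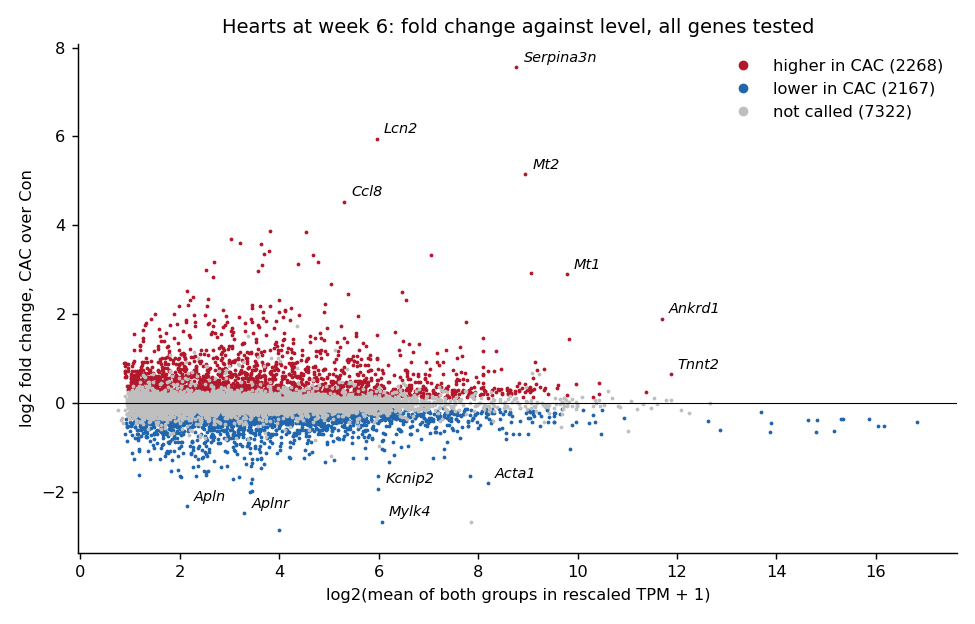
Each point is 1 of 11757 genes tested, with its level (log2 of the mean of both groups in rescaled TPM, plus 1) across and its log2 fold change, CAC over Con hearts at week 6, upward. Genes higher in CAC (2268) reach further from 0 than genes lower in CAC (2167), with Serpina3n at 7.56 and Mylk4 at −2.66.

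The genes that rose most were secreted proteins of the acute phase, the set of blood proteins that the liver and other tissues release in inflammation. Of 29 listed acute-phase genes 13 were expressed enough to be tested, and 12 rose and 0 fell. In 5 of the 13 no Con heart reached 1 rescaled TPM, so these passed through the CAC hearts alone and had to differ. The fibrinogen gene Fgb, made by hepatocytes, was at 0 in all 5 CAC hearts and reached 0.0122 in 1 Con heart. Serpina3n, a secreted inhibitor of serine proteases, maps to the plus strand of chromosome 12 from 104406729 to 104414329 (mm10, GENCODE M21). Its level was 1528, 745, 616, 1034 and 408 in CAC hearts, against 3.81, 5.50, 2.41, 2.40 and 2.46 in Con hearts. The lowest CAC heart was far above the highest Con heart, and the ratio of the means was 261. This is a log2 rise by 7.56 (adjusted p = 2.49e-07 in limma, SE 0.32).

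Lcn2, a lipocalin that binds bacterial iron carriers (chromosome 2, 32384633 to 32388252, minus strand), stood at 253, 121, 82.7, 114 and 38.8 in CAC hearts and at 0.569 to 0.831 in Con hearts. By limma, the log2 rise was 5.95 with SE 0.37 and adjusted p = 1.82e-06. The CAC hearts spread over more than a factor of 5 among themselves, and all of them were above every Con heart. Lrg1, a secreted leucine-rich glycoprotein, stood at 453, 231, 197, 233 and 97.8 in CAC and at 18.7 to 22.8 in Con. Itih4, a plasma glycoprotein, averaged 22.7 ± 6.73 in CAC and 1.28 ± 0.362 in Con, and haptoglobin Hp, which binds free haemoglobin, 10.2 ± 4.17 in CAC and 0.474 ± 0.112 in Con (SD, n = 5 each). Serum amyloid Saa3 rose by 2.98 (SE 0.68, limma adjusted p = 0.00532) on very unequal hearts, with 78.6 in CAC replicate 1 and 2.53 to 14.0 in the other 4, against 0.252 to 0.902 in Con. A pair of further members of the Serpina3 cluster followed Serpina3n: Serpina3i averaged 25.3 ± 9.12 in CAC and 0.724 ± 0.290 in Con, and Serpina3m 14.4 ± 8.76 in CAC and 0.0482 ± 0.0544 in Con. Serpina3 and Saa genes are families of very similar copies, and reads may have been shared out among them in counting, which leaves each member's own level uncertain.

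The largest rises also held genes of other kinds. Apod, a lipid-binding lipocalin, averaged 48.6 ± 18.4 in CAC and 4.43 ± 1.71 in Con. Slc10a6, a transporter of sulphated steroids, averaged 21.6 ± 6.62 in CAC and 1.58 ± 0.325 in Con, and Clca3a1, of a family of chloride channel regulators, 16.3 ± 6.56 in CAC and 0.336 ± 0.0856 in Con (SD, n = 5 each). For all 3 the groups did not overlap, which is a condition of the rule that chose them. Clca3a1 was below 1 in the Con hearts, so it passed the filter through the CAC hearts alone.

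**Figure D2:**
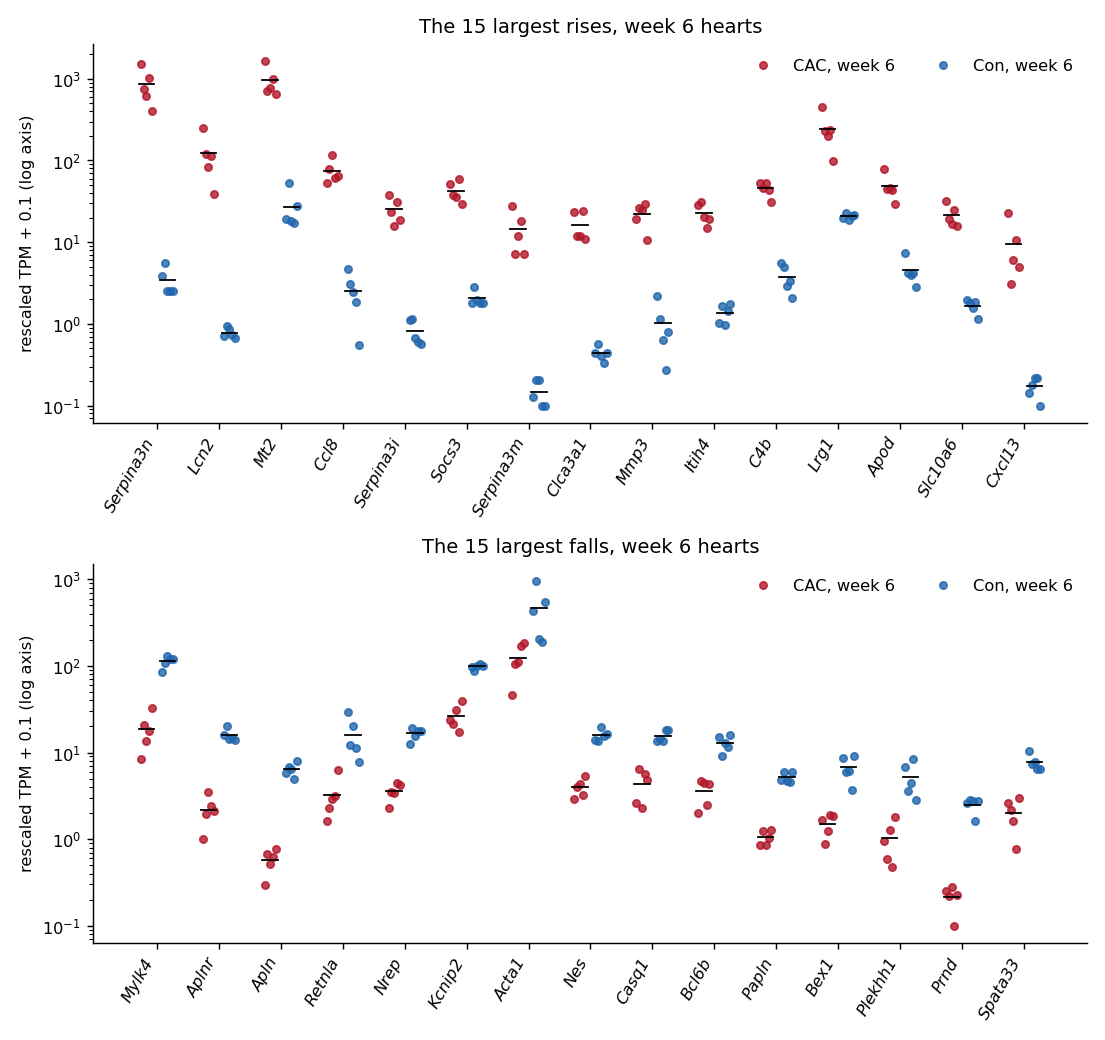
Rescaled TPM plus 0.1 (log axis) of the 15 genes with the largest rise (top) and the 15 with the largest fall (bottom) in CAC hearts (red, left) and Con hearts (blue, right) at week 6. Points are hearts and bars are means of 5; no CAC heart overlaps a Con heart in any of these genes, which is a condition of the rule that chose them.

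Genes of the IL-6 family and of JAK-STAT3 signalling rose more often than they fell. Of 27 tested members 13 were higher and 3 lower (17 and 0 with TPM as deposited). The ligand genes themselves were barely present: Il6 was at 0.0168 to 0.161 in CAC hearts and 0 to 0.0748 in Con hearts, and oncostatin M, Osm, at 0.0395 to 0.191 in CAC and 0.0608 to 0.144 in Con. Among the receptors, the oncostatin M receptor gene Osmr stood at 18.2, 18.7, 17.4, 16.4 and 14.0 in CAC, against 2.61, 2.85, 3.16, 2.82 and 2.93 in Con. It had the smallest p of all genes, a rise by 2.21 in log2 units (limma adjusted p = 8.07e-08, SE 0.07). The shared receptor gp130, Il6st, rose by 0.28 to 38.3 ± 2.37 in CAC, against 31.5 ± 1.63 in Con, and the IL-6 receptor Il6ra by 0.52 to 1.95 ± 0.162, against 1.06 ± 0.140 in Con (SD, n = 5 each). Stat3 itself averaged 59.99 ± 6.42 in CAC and 27.9 ± 2.41 in Con, and the kinase gene Jak3 averaged 22.0 ± 3.25 in CAC and 8.93 ± 0.406 in Con.

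Socs3, the brake on this pathway, stood at 51.9, 37.6, 35.4, 58.6 and 29.1 in CAC hearts, against 1.71, 2.75, 1.88, 1.68 and 1.71 in Con hearts. This is a log2 rise by 3.85 (adjusted p = 3.17e-07 in limma, SE 0.18), and the ratio of the means was 21.9. The related Cish rose by 0.81 (SE 0.19, limma adjusted p = 0.00594), with 22.5 to 45.9 in CAC and 14.3 to 20.3 in Con.

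STAT factors bind DNA at palindromes of the form TTCNNNGAA. Because STAT3 and acute-phase genes moved together, the promoter windows of the 25 members that rose were searched for this motif, which reads the same on both strands and overlaps no other motif searched. RefSeq (GRCm38.p6) held windows of 250 bases before to 50 after the start for 19 of the 25 genes, 27 windows in all. The motif was in 4 of the 27 (14.8%), in 8.30% of all 32851 mouse promoter windows and in 6.76% of the windows of tested genes. The 250 bases before the start of the 3 genes with a match there are given 5′ to 3′ with the motif in capitals, to show where it lies. They are chr11:117969367-117969616 (minus strand) for Socs3, chr12:104262872-104263121 (plus strand) for Serpina3i and chr14:30886226-30886475 (plus strand) for Itih4.
Socs3: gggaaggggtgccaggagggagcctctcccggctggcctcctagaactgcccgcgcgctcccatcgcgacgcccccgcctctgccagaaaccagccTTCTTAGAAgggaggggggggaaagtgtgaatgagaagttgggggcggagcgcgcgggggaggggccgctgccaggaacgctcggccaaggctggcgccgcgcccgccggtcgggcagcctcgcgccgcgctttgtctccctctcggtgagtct
Serpina3i: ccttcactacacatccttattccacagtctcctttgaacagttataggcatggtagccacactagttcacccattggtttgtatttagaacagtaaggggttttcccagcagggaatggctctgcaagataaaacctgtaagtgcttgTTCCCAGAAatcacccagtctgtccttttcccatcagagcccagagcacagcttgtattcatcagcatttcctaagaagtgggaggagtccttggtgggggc
Itih4: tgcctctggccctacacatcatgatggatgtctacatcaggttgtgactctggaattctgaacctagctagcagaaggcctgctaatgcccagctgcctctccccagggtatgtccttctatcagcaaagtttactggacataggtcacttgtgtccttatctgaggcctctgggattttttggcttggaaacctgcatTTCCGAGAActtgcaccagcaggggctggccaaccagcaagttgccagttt
Counted from the 5′ end, the motif begins at base 97 in Socs3, 149 in Serpina3i and 200 in Itih4. In Cish both of its matches lie just after the start. The windows of Serpina3n and Lcn2, which rose more than any of these, hold no match.

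Metallothioneins, small proteins that bind zinc and copper, reached the level of abundant heart transcripts. Mt2 (chromosome 8, 94172664 to 94173568, plus strand) stood at 1642, 718, 781, 999 and 654 in CAC hearts, against 18.9, 53.2, 18.1, 17.3 and 27.4 in Con hearts. By limma, the log2 rise was 5.15 with SE 0.32 and adjusted p = 1.88e-06. The neighbouring Mt1 averaged 1551 ± 423 in CAC and 204 ± 40.8 in Con (SD, n = 5 each). Mt1 and Mt2 are similar copies, so reads could be split between them. The zinc importer Slc39a14, which IL-6 induces in liver, rose by 1.08 and Slc39a1 by 1.00, and of the 13 tested genes of metallothioneins and zinc transport 5 rose and 1 fell (10 and 0 with TPM as deposited). Of 13 tested iron genes 8 rose and 0 fell, among them transferrin Trf by 1.54 and the haem oxygenase gene Hmox1 by 1.17.

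Inflammatory signalling genes beyond STAT3 were higher as well. Of 16 tested genes of the IL-1, TNF and NF-kB pathway 10 rose and 0 fell. Bcl3, a nuclear partner of NF-kB, averaged 9.17 ± 1.29 in CAC and 1.78 ± 0.366 in Con, the TNF receptor gene Tnfrsf1a 68.0 ± 10.5 in CAC and 22.9 ± 1.28 in Con, and the IL-1 receptor Il1r1 9.96 ± 1.33 in CAC and 3.67 ± 0.332 in Con (SD, n = 5 each). Groups did not overlap in these 3 genes.

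Of 17 tested complement genes 15 rose and 1 fell, with a median log2 difference of 1.18. C3, the central component, stood at 163, 172, 188, 129 and 121 in CAC, against 30.6, 45.2, 25.3, 30.4 and 21.6 in Con, a rise by 2.32 in log2 units (limma adjusted p = 6.73e-06, SE 0.18). C4b, which acts upstream of C3 in the classical pathway, averaged 45.4 ± 9.25 in CAC and 3.67 ± 1.45 in Con. The subunit C1qc, made mainly by macrophages, averaged 57.5 ± 9.82 in CAC and 19.99 ± 4.17 in Con (SD, n = 5 each).

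Chemokines split by member, with 11 of 20 tested genes of ligands and receptors higher and 2 lower, and 3 of the 20 passed the filter through CAC hearts alone. Ccl8, a ligand of monocyte receptors, stood at 53.0, 77.8, 117, 60.7 and 63.97 in CAC hearts and at 0.456 to 4.59 in Con hearts, a rise by 4.53 in log2 units (limma adjusted p = 4.14e-06, SE 0.32). Ccl6 rose by 2.69 and Ccl9 by 2.14. Cxcl13, which attracts B cells, stood at 22.7, 2.98, 5.92, 10.5 and 4.87 in CAC and at 0 to 0.120 in Con. The receptor Cxcr4 fell by 1.05 (limma adjusted p = 7.89e-06).

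Macrophage and monocyte markers rose almost throughout, with 19 of 22 tested genes higher and 1 lower, and 2 of the 22 passed the filter through CAC hearts alone. Summed over the 25 listed markers in the files, the level was 421 to 633 in CAC hearts and 192 to 280.4 in Con hearts. The scavenger receptor Cd163 stood at 21.01, 14.9, 17.2, 14.4 and 13.04 in CAC, against 2.98, 4.92, 3.58, 3.67 and 3.84 in Con. Mrc1 rose by 1.69, F13a1 by 1.70 and the growth factor receptor Csf1r by 0.92. The marker that fell was Retnla, a protein secreted by macrophages under IL-4, with 1.50, 2.18, 2.84, 3.01 and 6.22 in CAC and 29.2, 12.0, 20.1, 11.04 and 7.72 in Con. On the log2 scale it fell by 1.99 (adjusted p = 0.00113 in limma, SE 0.35). The share of these marker changes in the other results was not tested.

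Markers of the remaining blood cells were low or moved less. Of 15 listed neutrophil markers 4 were tested and all 4 rose, but only Wfdc17 strongly (by 2.45). S100a8 and S100a9 rose by 0.61 and 0.66, and the call was lost on leaving out single libraries, with limma adjusted p up to 0.0571 and 0.0724. For S100a8 those libraries were CAC replicates 1 and 4 and Con replicate 4, and for S100a9 all but CAC replicates 2 and 3 and Con replicate 2. Only 1 of 18 T- and NK-cell markers could be tested, Cd28, and it was called only with TPM as deposited (0.27 higher). Of 13 listed B- and plasma-cell markers 3 were tested, with 0 higher and 1 lower. Their 33.3% called is below the 37.7% over all genes, and their median log2 difference was −0.23. The immunoglobulin light chain gene Igkc averaged 2.27 ± 0.724 in CAC and 6.87 ± 3.68 in Con (SD, n = 5 each), a fall of 1.20 on the log2 scale with no overlap between the groups. None of 16 tested antigen-presentation genes was called (limma), 0 higher and 0 lower, whereas 4 were called higher with TPM as deposited. Interferon-response genes were mixed, with 5 of 34 higher and 10 lower (6 and 6 with TPM as deposited). Log2 differences over these 34 genes ran from −1.26 to 1.19. The guanylate-binding protein gene Gbp3 fell by 1.18 and the antiviral gene Rsad2 by 1.12, while Irf9, a partner of STAT proteins, rose by 0.48.

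**Figure D3:**
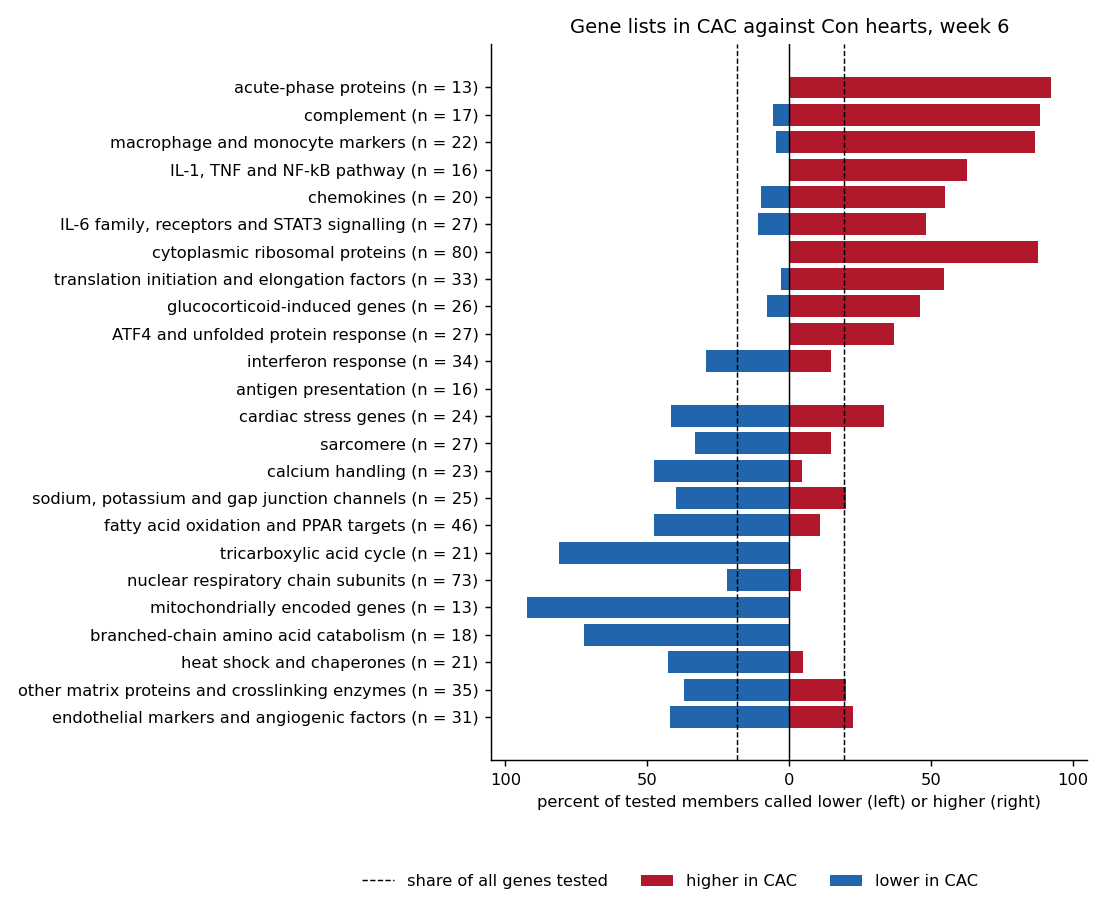
Share of the tested members of 24 gene lists called higher (red, right) or lower (blue, left) in CAC than in Con hearts at week 6, with the number tested beside each name; dashed lines mark the shares over all genes, 19.3% higher and 18.4% lower. Acute-phase, complement, macrophage and ribosomal protein genes reach furthest to the right, mitochondrially encoded and tricarboxylic acid cycle genes furthest to the left.

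Glucocorticoids rise in wasting, and 12 of 26 tested glucocorticoid-induced genes were higher and 2 lower. In 1 of the 26 no Con heart reached 1 rescaled TPM, so it passed through the CAC hearts alone. The list holds Lcn2, Mt1 and Mt2, which inflammation induces too. Fkbp5, a chaperone partner of the glucocorticoid receptor, stood at 41.0, 15.1, 14.8, 27.1 and 17.7 in CAC hearts, against 3.05, 5.35, 6.93, 5.85 and 5.48 in Con hearts, a rise by 1.86 in log2 units (limma adjusted p = 3.63e-04, SE 0.27). The transcription factor Cebpd, also a STAT3 target, averaged 32.8 ± 7.36 in CAC and 7.42 ± 1.39 in Con (SD, n = 5 each). The classical target Per1, at 26.6 ± 6.69 in CAC and 23.7 ± 4.67 in Con, was not called (limma adjusted p = 0.617). The receptor gene Nr3c1 fell to 16.9 ± 1.99 in CAC, against 23.1 ± 0.876 in Con (log2 fold change −0.44, SE 0.07, limma adjusted p = 6.84e-04).

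Of 17 clock genes 3 rose and 3 fell (4 and 1 with TPM as deposited), and their 35.3% called is near the 37.7% over all genes. Nr1d1, a repressor within the clock, stood at 25.3, 20.6, 3.20, 31.1 and 16.6 in CAC and at 14.1 to 54.4 in Con, overlapping and not called. Its low value in CAC replicate 3 was not shared by the other CAC hearts. Immediate early genes had 8 of 20 members higher and 0 lower (12 and 0 with TPM as deposited). The share of this list that was called is near the 37.7% over all genes. Junb averaged 49.4 ± 11.1 in CAC and 9.62 ± 1.78 in Con, and the growth regulator Myc 5.33 ± 1.57 in CAC and 1.01 ± 0.244 in Con (SD, n = 5 each). Of 27 genes of the ATF4 and unfolded protein responses 10 rose and 0 fell (15 and 0 with TPM as deposited), and their 37.04% called is close to the 37.7% over all genes. The amino acid transporter subunit Slc3a2 was higher by 1.19 and asparagine synthetase Asns by 0.75. Heat shock and chaperone genes went the other way, with 1 of 21 higher and 9 lower (3 and 3 with TPM as deposited). The mitochondrial chaperone Hspd1 fell to 166 ± 19.7 in CAC, against 239.6 ± 24.7 in Con.

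Ribosomal protein genes rose by small amounts. Of 80 cytoplasmic ribosomal protein genes 70 rose and 0 fell, with a median log2 difference of 0.29, and 80 and 67 were higher with 0 lower under the other scalings (TPM as deposited, and scaling without mitochondrial and haemoglobin genes). Rpl12 stood at 106, 100.1, 102, 115 and 96.6 in CAC hearts, against 70.8, 72.9, 70.8, 74.4 and 69.1 in Con hearts. Of 29 ribosome biogenesis genes 8 rose and 0 fell (23 and 0 with TPM as deposited), and their 27.6% called is below the 37.7% over all genes. Of 33 translation factors 18 rose and 1 fell (29 and 0 with TPM as deposited), with the initiation factor Eif1a highest in fold at 0.79. Rpl3 and its striated-muscle copy Rpl3l moved apart. Rpl3 stood at 85.3, 58.6, 67.0, 88.0 and 69.7 in CAC and 48.3, 58.2, 40.05, 42.3 and 41.2 in Con, a rise of 0.67 (SE 0.13, limma adjusted p = 0.00205). Rpl3l averaged 212 ± 16.2 in CAC and 263 ± 11.99 in Con, a fall of 0.32 (limma adjusted p = 0.00131) that was 0.07 and not called with TPM as deposited.

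Genes that break protein down moved in both directions. The muscle ubiquitin ligases Fbxo32 (atrogin-1) and Trim63 (MuRF1), which mark atrophy in skeletal muscle, were not called. Fbxo32 stood at 46.1, 52.9, 32.2, 57.8 and 47.3 in CAC, against 49.3, 54.7, 32.5, 40.6 and 44.7 in Con, a difference of 0.08 in log2 units (limma adjusted p = 0.714, SE 0.16). Trim63 averaged 140.3 ± 18.98 in CAC and 126 ± 20.2 in Con, 0.16 higher (SE 0.12, limma adjusted p = 0.331), and was called, 0.40 higher, with TPM as deposited. Of 26 genes of the atrophy and FOXO list 4 rose and 6 fell (14 and 1 with TPM as deposited), and their 38.5% called is close to the 37.7% over all genes. Larger than these was the difference in another ubiquitin ligase subunit, Fbxo31, at 66.7 ± 14.97 in CAC and 28.1 ± 1.54 in Con, and the translation repressor Eif4ebp1 rose by 0.72. Among 36 proteasome subunits 11 rose and 2 fell (33 and 0 with TPM as deposited), none by more than 0.37, and their 36.1% called is close to the 37.7% over all genes. Among 32 autophagy genes 11 rose and 4 fell (24 and 1 with TPM as deposited). The lysosomal genes Ctsb and Lamp2 rose by 0.54 and 0.61 and the mitophagy kinase Pink1 fell by 0.55.

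Stress genes of heart muscle moved in both directions, with 8 of 24 tested genes higher and 10 lower (13 and 6 with TPM as deposited). Of the 24, 1 passed the filter through the CAC hearts alone and 1 through the Con hearts alone. Ankrd1, a stretch-responsive protein of nucleus and sarcomere (chromosome 19, 36111961 to 36120099, minus strand), stood at 7102, 5029, 4615, 5093 and 4076 in CAC hearts, against 2377, 1438, 1239, 843 and 1336 in Con hearts. By limma, the log2 rise was 1.90 with SE 0.24 and adjusted p = 1.23e-04. Its relative Ankrd2 rose by 1.47, and Mybpc2, the fast skeletal form of myosin-binding protein C, stood at 56.6, 52.3, 35.2, 51.1 and 40.1 in CAC and at 8.76 to 12.4 in Con. The natriuretic peptides, hormones of the loaded heart, were less uniform. Nppb stood at 392, 270.1, 494, 282 and 370.0 in CAC and at 406, 133, 199, 71.3 and 116 in Con, overlapping through Con replicate 1. It rose by 1.18 (SE 0.38, limma adjusted p = 0.0306), a call that was lost without any 1 of CAC replicates 1, 3 and 5 and Con replicates 2, 4 and 5 (limma adjusted p up to 0.0709). Nppa ranged from 134 to 1957 in CAC and from 85.8 to 674 in Con and was not called.

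Pressure overload is known to turn rodent heart muscle towards foetal forms of myosin and actin. Here the slow myosin Myh7 rose by 0.24 (SE 0.06, limma adjusted p = 0.00688), with 359 to 421 in CAC and 303 to 339 in Con, and the adult myosin Myh6 did not differ by the test, at 4601 to 7597 in CAC and 6072 to 6634 in Con, though with TPM as deposited it was called, 0.25 higher. The skeletal actin Acta1 fell, with 46.5, 106, 109.6, 168 and 182 in CAC, against 429.7, 947, 206, 187 and 542 in Con, a fall by 1.79 in log2 units (limma adjusted p = 0.0125, SE 0.48). Cardiac actin Actc1 fell by 0.59, with 8385 in CAC replicate 5 inside the Con range of 8015 to 9853. Of 27 sarcomere genes 4 rose and 9 fell (11 and 3 with TPM as deposited). Troponin T, Tnnt2, rose to 4569.8 ± 394 in CAC, against 2915 ± 316 in Con (SD, n = 5 each).

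Leaving out pseudogenes and predicted genes, the largest fall with non-overlapping groups and a group mean of at least 2 was in Mylk4, a myosin light chain kinase of striated muscle (chromosome 13, 32700834 to 32783954, minus strand). Its level was 8.29, 20.7, 13.4, 17.5 and 32.6 in CAC hearts, against 86.03, 108, 131, 119 and 121 in Con hearts. CAC hearts fell by 2.66 log2 units (SE 0.28; adjusted p = 3.83e-05, limma), and the highest CAC heart, at 32.6, was far below the lowest Con heart, at 86.03. The intermediate filament gene Nes averaged 3.86 ± 0.953 in CAC and 15.7 ± 2.53 in Con (SD, n = 5 each).

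Of 23 calcium-handling genes 1 rose and 11 fell (6 and 3 with TPM as deposited). Casq1, a calcium store protein best known from skeletal muscle, stood at 2.53, 6.32, 2.21, 5.58 and 4.76 in CAC hearts, against 13.5, 14.2, 13.6, 18.2 and 18.3 in Con hearts, a fall by 1.71 in log2 units (limma adjusted p = 1.68e-04, SE 0.22). The calcium release channel Ryr2 fell by 0.20 (limma adjusted p = 0.0147), and with TPM as deposited it was 0.04 higher and not called. The pump Atp2a2 averaged 3891 ± 231 in CAC and 3669 ± 137 in Con and its inhibitor Pln 4104 ± 182 in CAC and 4525 ± 260.1 in Con, neither called. With TPM as deposited Atp2a2 was called, 0.33 higher.

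Ion channels were sorted by gene rather than by class, with 5 of 25 higher and 10 lower (8 and 6 with TPM as deposited). Kcnip2, the subunit that carries the fast transient outward potassium current to the membrane (chromosome 19, 45791839 to 45816061, minus strand), stood at 23.9, 21.3, 30.6, 17.1 and 39.2 in CAC, against 97.2, 87.9, 101, 106 and 100.5 in Con. This was a fall by 1.92 in log2 units (SE 0.18, adjusted p = 1.78e-05 in limma), with Con hearts within 87.9 to 106 and CAC hearts spread over 17.1 to 39.2. Kcnj3, a subunit of the muscarinic potassium channel, fell by 0.90 and its partner Kcnj5 by 0.61. The pacemaker channel gene Hcn2 averaged 6.46 ± 1.76 in CAC and 16.4 ± 2.60 in Con. In the other direction, Kcnq1, of the slow delayed rectifier, stood at 50.2, 33.8, 29.5, 41.1 and 37.1 in CAC and at 16.2 to 16.9 in Con. The gap junction gene Gja1 averaged 444 ± 34.4 in CAC and 262 ± 47.4 in Con (SD, n = 5 each), without overlap. Of 19 genes of adrenergic and muscarinic signalling 3 rose and 8 fell (6 and 4 with TPM as deposited), with the protein kinase A subunit Prkar1a higher by 0.82 and the G-protein regulator Rgs4 lower by 0.67.

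**Figure D4:**
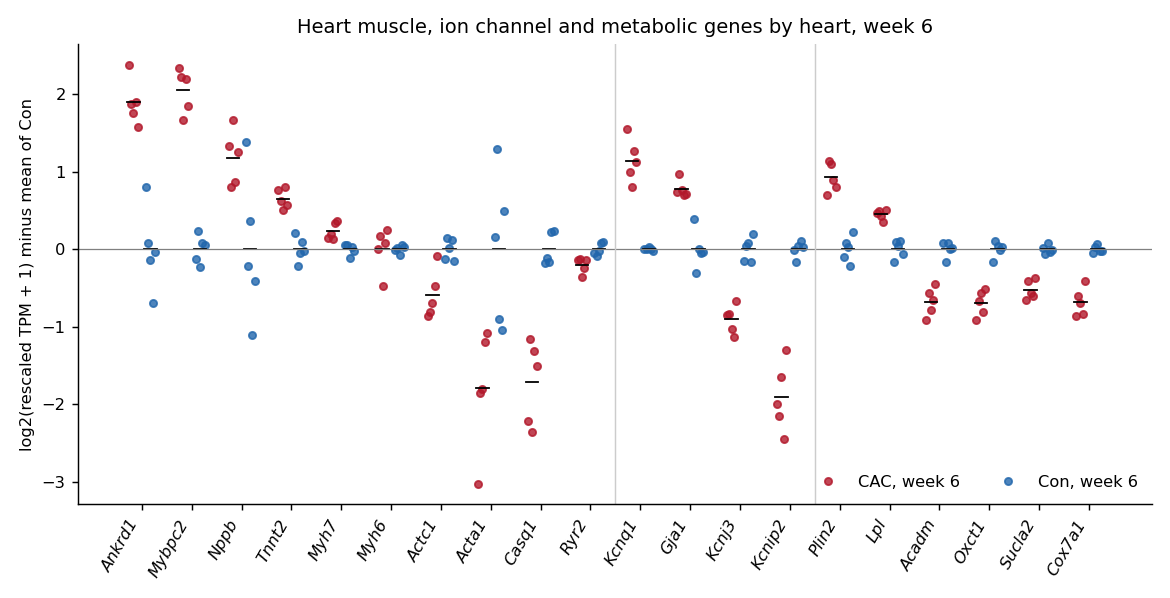
Difference of log2(rescaled TPM + 1) from the mean of the Con hearts for 10 heart muscle, 4 ion channel and gap junction and 6 metabolic genes, in CAC hearts (red, left) and Con hearts (blue, right) at week 6; points are hearts, bars are means of 5. Ankrd1 and Mybpc2 lie near 2 in CAC and Kcnip2 near −2, while Myh6 lies at 0.01.

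Among genes of mitochondrial fuel use, those encoded in the mitochondria fell on both scales. All 13 mitochondrially encoded protein genes were tested, and 12 fell and 0 rose, with a median log2 difference of −0.43 (10 and 0 with TPM as deposited, where the median was −0.18). mt-Nd2, a subunit of complex I, stood at 20542, 24740.0, 20749, 20740.2 and 24432 in CAC hearts, against 35544, 34711, 34633, 32082 and 37651 in Con hearts. Nuclear genes of the respiratory chain moved little: 3 of 73 rose and 16 fell, with a median of −0.05, and with TPM as deposited 57 were higher and 1 lower, so their direction depends on the scaling. The muscle isoform Cox7a1 fell on both scales, with 1091 ± 144 in CAC and 1741 ± 57.1 in Con (log2 fold change −0.68, limma adjusted p = 7.30e-05).

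Of 46 genes of fatty acid oxidation and its PPAR control 5 rose and 22 fell (9 and 11 with TPM as deposited). The medium-chain dehydrogenase Acadm stood at 270.2, 344, 296, 324 and 373 in CAC, against 541, 454, 541, 511 and 516 in Con, a fall by 0.68 in log2 units (limma adjusted p = 1.27e-04, SE 0.08). Etfdh, which passes electrons from it to the respiratory chain, fell by 0.67. The lipid droplet coat gene Plin2 rose by 0.92 and lipoprotein lipase Lpl by 0.45. Of 12 listed adipocyte markers 6 were tested and 5 rose, with a summed level of 66.5 to 83.8 in CAC hearts and 40.3 to 43.7 in Con hearts. The defining adipocyte genes were low, Adipoq at 0.465 to 1.23 in CAC and 0.400 to 0.743 in Con and Plin1 at most 0.244 in CAC and 0.140 in Con. The part of fat cells in these rises was not tested. The PPAR and fasting targets Pdk4 and Ucp3 overlapped and were not called, with Pdk4 at 71.5 to 183 in CAC and 70.0 to 283 in Con, and Ucp3 at 4.91 to 24.4 in CAC and 8.68 to 34.2 in Con.

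In the tricarboxylic acid cycle 17 of 21 genes fell and 0 rose with rescaling, but 1 was lower and 5 were higher with TPM as deposited. Sucla2 was the one lower on both scales, at 181 ± 15.7 in CAC and 259.7 ± 10.4 in Con. Of 18 genes that break down branched-chain amino acids 13 fell and 0 rose (8 lower and 3 higher with TPM as deposited), with Dbt at 25.4 ± 1.76 in CAC and 39.0 ± 3.29 in Con. In ketone use 4 of 7 fell. Oxct1, which starts the burning of ketone bodies, stood at 337, 398, 428, 361 and 444 in CAC and at 566 to 685 in Con. Glycolysis and glucose uptake had 5 of 31 genes higher and 11 lower (17 and 4 with TPM as deposited). Within it the hexokinases parted, Hk2 falling by 0.60 and Hk1 rising by 0.48. Of 27 genes of the insulin and IGF axis 7 rose and 4 fell (16 and 2 with TPM as deposited), and their 40.7% called is near the 37.7% over all genes. The insulin receptor substrate Irs1 was lower by 0.83 and the IGF-binding Igfbp3 higher by 1.46.

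The main fibrillar collagens did not differ by the test. Col1a1 stood at 13.6 to 23.0 in CAC and 15.5 to 24.8 in Con, and Col3a1 at 19.4 to 43.3 in CAC and 24.8 to 39.9 in Con. Of 18 collagens 1 rose and 5 fell (1 and 3 with TPM as deposited), and their 33.3% called is below the 37.7% over all genes. Of 35 other matrix genes 7 rose and 13 fell (14 and 3 with TPM as deposited). Among these 35, 1 passed the filter through the CAC hearts alone. Periostin, Postn, a matrix protein of activated fibroblasts, stood at 0.764, 1.78, 2.01, 2.09 and 2.47 in CAC, against 4.65, 10.6, 5.51, 5.64 and 6.34 in Con, a fall of 1.41 (SE 0.21, limma adjusted p = 4.36e-04). Elastin, Eln, averaged 13.9 ± 2.05 in CAC and 5.69 ± 0.780 in Con, and decorin, Dcn, 735 ± 80.0 in CAC and 431 ± 27.9 in Con (SD, n = 5 each). Of 21 matrix proteases and inhibitors 11 rose and 3 fell (13 and 1 with TPM as deposited). Stromelysin Mmp3 stood at 19.2, 26.4, 24.6, 29.2 and 10.4 in CAC and at 0.174 to 2.11 in Con, and Adamts15 rose by 1.81. Of 17 fibroblast markers 4 rose and 5 fell (8 and 3 with TPM as deposited). The markers Pdgfra, Dpt and Tcf21 were not called with rescaling and were called 0.45, 0.40 and 0.28 higher with TPM as deposited. Decorin, set beside them as a fibroblast marker, had the higher mean in CAC given above. Of 25 genes of TGF-beta and BMP signalling 5 rose and 8 fell (9 and 1 with TPM as deposited). Among these 25, 1 passed the filter through the CAC hearts alone.

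Both genes of the apelin system, which is known from blood vessels and heart muscle, fell. Apln, a peptide ligand (X chromosome, 48025146 to 48034853, minus strand), stood at 0.194, 0.579, 0.416, 0.517 and 0.669 in CAC hearts, against 5.78, 6.71, 6.35, 4.83 and 7.96 in Con hearts, a fall by 2.31 in log2 units (limma adjusted p = 8.02e-07, SE 0.12). Its receptor Aplnr (chromosome 2, 85136225 to 85139923, plus strand) stood at 0.893, 1.85, 3.41, 2.29 and 2.00 in CAC, against 15.7, 20.02, 14.2, 14.6 and 13.7 in Con, a fall by 2.47 in log2 units (limma adjusted p = 5.90e-06, SE 0.19). Ligand and receptor were both lower in all 5 CAC hearts than in any Con heart. Apln was below 1 in all 5 CAC hearts, so it passed the filter through the Con hearts alone and had to differ. Of 31 endothelial and angiogenic genes 7 rose and 13 fell (7 and 8 with TPM as deposited). Among these 31, 2 passed the filter through the Con hearts alone. The VEGF receptor Kdr averaged 21.2 ± 1.89 in CAC and 39.4 ± 3.38 in Con and the junction gene Cdh5 46.6 ± 2.53 in CAC and 70.3 ± 5.22 in Con, while Pecam1, at 47.1 ± 3.603 in CAC and 52.1 ± 4.49 in Con, was not called (limma adjusted p = 0.118). Plvap, of permeable capillaries and veins, rose by 1.35. Of 14 pericyte and smooth muscle markers 2 rose and 5 fell, but 5 rose and 2 fell with TPM as deposited, so their direction depends on the scaling. Of 6 lymphatic endothelial markers 3 rose and 0 fell (5 and 0 with TPM as deposited). Red cell genes, a measure of blood left in the tissue, summed to 673 to 2213 in CAC and 1622 to 4215 in Con, with 4 of 7 lower.

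Of 15 tested cell cycle genes 2 rose and 7 fell (5 and 4 with TPM as deposited). Cyclin D1, Ccnd1, averaged 5.66 ± 1.41 in CAC and 17.2 ± 3.29 in Con, and the inhibitor Cdkn1a 23.9 ± 9.89 in CAC and 7.90 ± 1.83 in Con (SD, n = 5 each). Of 23 apoptosis genes 7 rose and 2 fell (12 and 0 with TPM as deposited), and their 39.1% called is near the 37.7% over all genes. In the imprinted growth network 4 of 12 rose and 2 fell (6 and 2 with TPM as deposited), and its non-coding RNA H19 stood at 14.1, 23.4, 21.4, 23.7 and 27.3 in CAC and at 8.79, 3.56, 2.56, 2.50 and 4.03 in Con. Of 29 antioxidant genes 9 rose and 8 fell (17 and 1 with TPM as deposited), with Nqo1 higher by 0.75 and catalase Cat lower by 0.55. Of 10 melanocyte markers 3 were tested, and 1 of the 3 passed the filter through the CAC hearts alone. Mlana stood at 3.53, 2.09, 2.17, 2.06 and 1.66 in CAC and at 0.154 to 0.656 in Con, Dct fell by 0.85, Mitf was not called, and the pigment gene Tyrp1 was at 0 in all CAC hearts and reached 0.0158 in 1 Con heart.

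The CAC hearts were not equally far from Con. Over the 360 called genes with a log2 difference of at least 1, the median share of the group difference was 1.16 in CAC replicate 1, 0.854 in CAC replicate 5 and 0.968 to 1.02 in the other 3 hearts. Among the 15 largest rises CAC replicate 1 had the highest value in 9 and CAC replicate 5 the lowest in 10. Among the 15 largest falls CAC replicate 1 was lowest in 8 and CAC replicate 5 highest in 9. Replicate 5 lay beyond every Con heart in all 30 of these genes, which is a condition of the rule that chose them.

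Hearts of mice given the non-cachectic melanoma cells were compared in the same way. NCAC hearts at week 6 differed from Con in 0 of 11678 genes (0.0%) after adjustment by limma, with 619 at an unadjusted p below 0.05. CAC against NCAC gave 4893 of 11767 genes (41.6%), 2479 higher and 2414 lower (5473 and 812 with TPM as deposited). The comparisons share hearts, so only their values are set side by side. Serpina3n stood at 866 ± 434 in CAC, 2.35 ± 0.887 in NCAC and 3.32 ± 1.36 in Con (SD, n = 5 each). Ankrd1 averaged 5183 ± 1147 in CAC, 1030.2 ± 269 in NCAC and 1447 ± 567 in Con. Apln averaged 0.475 ± 0.182 in CAC, 7.43 ± 2.05 in NCAC and 6.32 ± 1.16 in Con, and Kcnip2 26.4 ± 8.67 in CAC, 95.0 ± 5.63 in NCAC and 98.7 ± 6.79 in Con. In these 4 genes the NCAC mean lay within 1 SD of the Con mean. CAC and NCAC differ in the injected cells as well as in cachexia, and the design cannot tell these apart.

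Week 6 lay between weeks 4 and 8 in the number of genes called. CAC against Con gave 812 of 11624 genes (6.99%) at week 4, with 1 Con library of 89.1% mitochondrial RNA left out, 4435 (37.7%) at week 6 and 5376 of 11993 (44.8%) at week 8, where CAC had 7 hearts. Different hearts were used at each week. Of the genes tested at both weeks, 436 rises were called at week 4 and week 6, which is 87.7% of the week 4 rises and 20.04% of the week 6 rises, and 280 falls (90.03% and 13%). At week 8 and week 6 the shared calls were 1767 rises (65.7% of the week 8 rises and 78.0% of the week 6 rises) and 1635 falls (64.4% and 75.7%). Serpina3n had a log2 fold change of 4.91 (SE 0.98) at week 4, 7.56 (SE 0.32) at week 6 and 8.33 (SE 0.77) at week 8. Socs3 had 2.90, 3.85 and 3.71, Ankrd1 1.57, 1.90 and 2.62, and Mylk4 −1.81, −2.66 and −3.91 at weeks 4, 6 and 8.

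Few of these changes in effect passed a test of their own. The week 6 effect differed from the week 4 effect in 20 of 12049 genes (0.166%), 7 more positive and 13 more negative at week 6. Haptoglobin Hp had a log2 fold change of 0.75 at week 4 and 2.85 at week 6, a difference of 2.10 (SE 0.34, limma adjusted p = 0.0159). Mybpc2 had 0.98 at week 4 and 2.05 at week 6 (limma adjusted p of the difference = 0.0288), and elastin Eln 0.09 at week 4 and 1.15 at week 6 (0.00683). The lipid desaturase Scd1 had −0.40 at week 4 and 0.65 at week 6, both called, a difference of 1.05 (SE 0.19, limma adjusted p = 0.0288). Acot2, a mitochondrial acyl-CoA thioesterase, had 0.38 at week 4, which was not called, and −0.70 at week 6, a difference of −1.08 (SE 0.19, limma adjusted p = 0.0207). The muscarinic channel gene Kcnj3 had −0.17 at week 4 and −0.90 at week 6 (0.0376). The count of 20 depended on the scaling and on single hearts. It was 36 with TPM as deposited, 100 without CAC week 4 replicate 2, 61 without CAC week 6 replicate 5 and 32 without CAC week 4 replicate 4. It was 13 without CAC week 4 replicate 1, 11 without Con week 6 replicate 3 or 5, 9 without Con week 4 replicate 4, 8 without Con week 4 replicate 3 and 7 without Con week 4 replicate 5. Of the genes just named, Hp and Eln stayed called without each of the 19 libraries in turn, while the call was lost without 3 of them in Acot2, 8 in Scd1, 11 in Mybpc2 and 14 in Kcnj3. The week 8 effect differed from the week 6 effect in 0 of 12206 genes (0.0%) by limma, with 1142 at an unadjusted p below 0.05. It was 108 genes without CAC week 8 replicate 3, 1 without Con week 8 replicate 5 and 26 when all groups entered the fit.

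**Figure D5:**
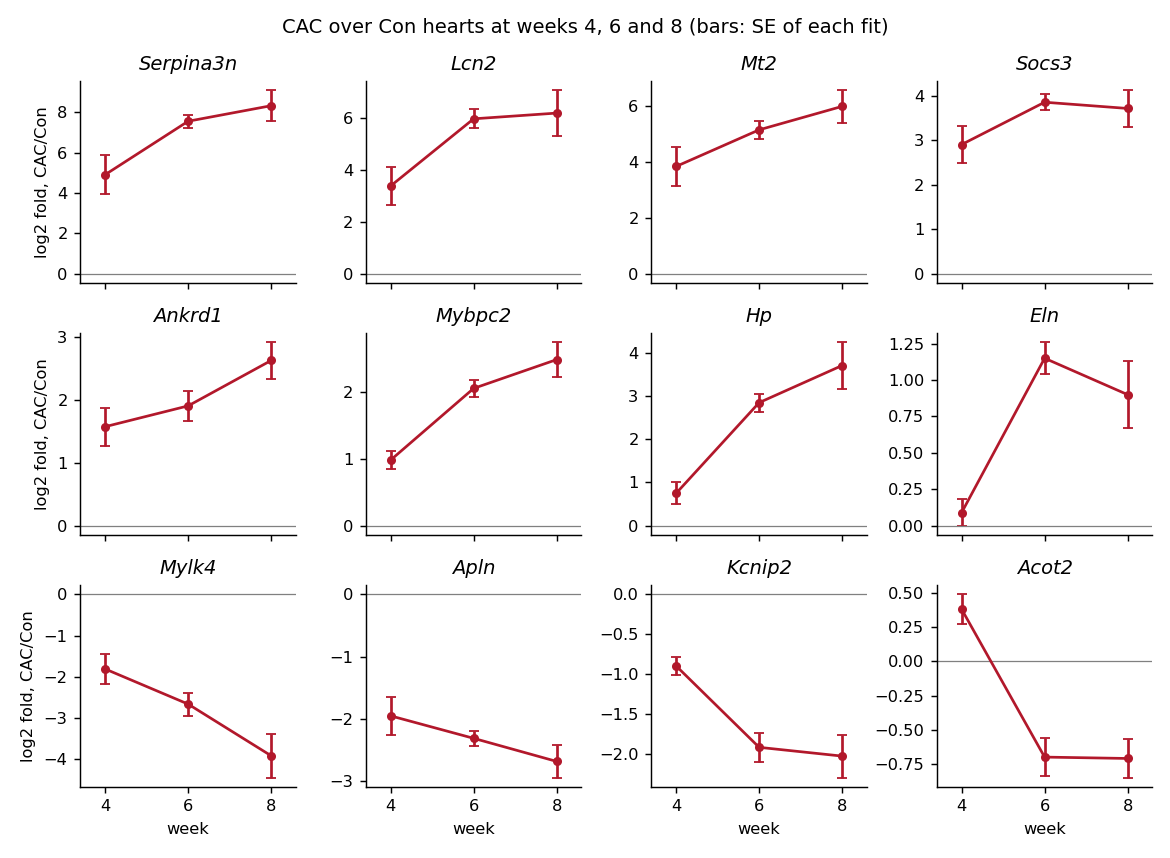
Log2 fold change of CAC over Con hearts (upward) at weeks 4, 6 and 8 (across) for 12 genes, with bars for the SE of each week's own fit; each week has its own hearts and each panel its own axis. Hp, Eln, Mybpc2 and Acot2 differ between weeks 4 and 6 by the test, and none of the 12 differs between weeks 6 and 8.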

How the data were processed

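RNA from whole hearts was extracted with Trizol and sequenced on an Illumina NovaSeq instrument from stranded TruSeq mRNA libraries, per the labels' protocols. The authors deposited TPM per gene symbol for 62 libraries, on mm10 per the submitters' processing notes. The aligner, counter and annotation are not given in the sources used here. Of 47643 symbols, 24270 were 0 in every library. These TPM were rescaled here by median-of-ratios factors over 10432 genes of 61 libraries, leaving out Con week 4 replicate 2 (89.1% mitochondrial). Genes at or above 1 rescaled TPM in at least 5 of the 10 week 6 libraries were tested with limma 3.58.1 (R 4.3.3) on log2(rescaled TPM + 1), with an intensity trend and Benjamini-Hochberg adjustment. Recovered reads came from the spacing of low TPM values, of which 80.4 to 81.8% lay within 0.05 of a whole read (10% by chance), too few for a count test. The test was run on simulated data with known changes before use. Coordinates are from GENCODE M21 (45090 symbols matched). Named genes are the 15 largest rises and the 15 largest falls with a mean of at least 2 and groups apart (predicted genes and pseudogenes left out), up to 4 members per list with the smallest p, a fixed panel, and the largest week differences. Il6, Osm, Il6ra, Il6st, Cish, Saa3, Gja1, Nr3c1, H2-Ea-ps and Fgb were chosen after their values were seen, and some genes that the rule names are not reported here. The comparison, gene lists and panel were chosen with earlier results of these data known. Replicate numbers were not used as pairs. Alternatives varied scaling, pseudocount, filter, block, weights, the groups fitted and single libraries. Figures used matplotlib 3.10.9 under Python 3.11.15.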

Additional observations from a re-analysis of the deposited data

Results flagged for a closer look

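A value far from the other 4 of its group was seen in 24 of the gene and group pairs named above. The text names 135 tested genes, each with a CAC and a Con group. Chance alone flags about 1 in 20 groups, so part of the 24 can be chance. CAC replicate 1 was the far value, and the highest, in Adamts15 (14.9), Hmox1 (28.1), Igfbp3 (66.0), Mlana (3.53), Mt1 (2286) and Saa3 (78.6). In the other CAC hearts they were Ankrd2 (3.70, replicate 4), Gja1 (505, replicate 2), Rsad2 (1.63, replicate 2), Irs1 (5.01, replicate 3), Pecam1 (53.3, replicate 3), Hcn2 (9.501, replicate 5) and Il1r1 (7.64, replicate 5). Con replicate 2 was far from the other Con hearts in Ankrd2 (0.702), C1qc (27.4), Col3a1 (39.9), Mt2 (53.2), Postn (10.6), Socs3 (2.75) and Tnfrsf1a (25.1). Con replicate 1 was far in H19 (8.79), Igfbp3 (15.4), Igkc (13.3) and Slc39a14 (10.4). All values are rescaled TPM.

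The week 6 effect differed from the week 4 effect, by limma's test of the difference, in 9 of the named genes. On the log2 scale, week 6 minus week 4, the differences were 2.10 for Hp, 1.07 for Mybpc2, 1.05 for Eln, 1.05 for Scd1 and 0.61 for the amino acid enzyme gene Asns. They were −1.08 for Acot2, −0.74 for Kcnj3, −0.64 for Cat and −0.59 for Etfdh. Without single libraries (19 in turn) Hp, Eln, Asns and Etfdh stayed called, and the call was lost without 3 libraries in Acot2, 8 in Scd1, 11 in Mybpc2, 14 in Kcnj3 and 16 in Cat.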

How the results depend on the processing

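With TPM as deposited, 6170 genes were called higher and 672 lower and the median gene moved by 0.209, a shift that the removed scaling itself makes. Under the other scalings, filters, pseudocount, weights and group choices 1662 to 2466 genes were higher and 1662 to 2379 lower, and 1910 to 2309 and 1788 to 2227 without single libraries. Same-numbered samples did not deviate together (correlations 0.031, −0.127, −0.002, −0.222 and 0.035). These values showed no sign of pairing by number, which so few hearts cannot exclude. The replicate block gave 1942 higher and 1850 lower. Of 116 called genes named above, 113 stayed called without any single library, and Nppb, S100a8 and S100a9 did not. Over all 4435 called genes 3387 stayed called. Many of the named genes were picked for a small p or a large difference without overlap. Beyond single libraries, calls were lost in Rpl3l and Ryr2 (TPM as deposited), in Actc1, Myh7, Ryr2, S100a8 and S100a9 (all groups fitted), in Nppb and S100a9 (no filter), in S100a8 and S100a9 (array weights) and in S100a9 (replicate block). Signs turned in Ryr2 (0.04), Col1a1 (0.09), Mitf (0.13), Pecam1 (0.10) and Pln (0.10) with TPM as deposited. Among genes that were not called, Myh6 turned to −0.02 when scaled without mitochondrial and haemoglobin genes. Without single libraries Myh6 turned to between −0.05 and −0.01 (−0.04 and −0.01 among them), and Col3a1 lay between −0.10 and 0.18 (−0.07 and −0.02 among them), Tcf21 between −0.02 and 0.15 and Fbxo32 between −0.02 and 0.21. The week 6 against week 4 count of 20 was 36 with TPM as deposited, 4 with the replicate block and 7 to 100 without single libraries; of the 9 genes named for it, Eln and Etfdh stayed called with the replicate block (limma adjusted p = 0.0369 and 0.0436), Kcnj3 was lost with TPM as deposited (0.05705), and Eln, Mybpc2 and Kcnj3 with all groups fitted. The week 8 against week 6 count of 0 was 1 when scaled without mitochondrial and haemoglobin genes, 26 with all groups fitted and 0 to 108 without single libraries. The causes were not tested. Depth limits genes below 1 TPM, which were not tested.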
